A study of Rattus norvegicus with 8 samples.

Results

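The growth hormone and insulin-like growth factor (IGF) axis of rat liver is described here through 10 genes: the receptor genes Ghr and Prlr, the signal transducer genes Stat5a and Stat5b, the hormone gene Igf1, the genes of its plasma partners Igfals, Igfbp3, Igfbp1 and Igfbp2, and Car3, a hepatocyte gene under growth hormone control. They were taken by gene symbol and are represented by 26 of the 8740 non-control probe sets of the array, and by 10 of its 4736 named genes. The list was chosen from earlier results of the same comparison, among them the lower Car3 signal after D3T. For this reason the differences of these 10 genes are given as a description, and p-values are given only for genes outside the list; of the 10 genes, only the number of probe sets past the threshold of the fit is printed, beside the share over all probe sets. Snap-frozen liver was taken from male Fischer 344 rats kept on AIN 76A chow, all with a labelled age of 6 in a unit that is not given, and its total RNA was measured on 8 Affymetrix rat U34 arrays of version A, 1 per rat. The 4 D3T rats were gavaged with 3H-1,2-dithiole-3-thione (D3T) at 0.3 mmol per kg body weight in saturated sucrose on days 1, 3 and 5. The 4 vehicle rats were gavaged with 0.2 ml of saturated sucrose; the days are labelled for 3 of them and not for vehicle replicate 2. D3T is a sulfur heterocycle known to induce detoxification enzymes. In these livers Gstp1 was 29.9-fold higher (limma adjusted p = 6.37e-07), Akr7a3 16.5-fold (adjusted p = 7.98e-07) and Nqo1 3.44-fold higher (adjusted p = 0.00115), and each is a known target of that response.

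Growth hormone from the pituitary binds its receptor on hepatocytes, the kinase Jak2 phosphorylates Stat5, and Stat5 enters the nucleus and activates genes that include Igf1, Igfals and Socs2. Most circulating IGF-I is made in the liver and travels in a complex with Igfbp3 and the acid-labile subunit encoded by Igfals, whereas Igfbp1 binds it in a shorter-lived form and is itself lowered by insulin. In male rats the pulses of growth hormone also set which cytochrome P450 genes the liver expresses. In whole liver, fewer cells of a type and less RNA per cell cannot be told apart.

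The listed promoter windows of the axis were searched for elements through which growth hormone, insulin and D3T are known to act. RefSeq windows of 300 bases, 250 before and 50 after a listed start, were available on build GRCr8 for 9 of the 10 genes, with 2 windows for Prlr; Car3 had no entry. The Stat5 element TTCNNNGAA was found in 1 of 10 windows, that of the downstream Prlr start, against 8.87% of 33469 windows of all genes. The insulin response element CAAAACAA was found in 2, at -121 of Igfbp1 and -67 of Igf1, against 2.23% of all windows (10 windows are too few to compare). The antioxidant response element core TGACNNNGC, through which Nfe2l2 acts, was found in 1, again at Prlr on the opposite strand, against 12.1% of all windows, and the GC box GGGCGG, a general promoter element, in 3 (Igfbp2, Stat5a and Stat5b) against 33.1%. Both strands were searched, and TTCNNNGAA reads alike on both. A match is a description of letters and not a bound site, and elements outside these windows were not looked for. The windows of Igf1 (chr7:24172282-24172581, plus strand), Igfals (chr10:14403600-14403899, plus strand), Igfbp3 (chr14:86277895-86278194, minus strand), Igfbp1 (chr14:86261027-86261326, plus strand) and the downstream start of Prlr (chr2:60909409-60909708, plus strand) are shown because these are the secreted partners with the lower signals described next and the windows with a response element. Capitals mark the matches, which in Prlr are the Stat5 element and then the antioxidant core; Igfals and Igfbp3 have none.
Igf1: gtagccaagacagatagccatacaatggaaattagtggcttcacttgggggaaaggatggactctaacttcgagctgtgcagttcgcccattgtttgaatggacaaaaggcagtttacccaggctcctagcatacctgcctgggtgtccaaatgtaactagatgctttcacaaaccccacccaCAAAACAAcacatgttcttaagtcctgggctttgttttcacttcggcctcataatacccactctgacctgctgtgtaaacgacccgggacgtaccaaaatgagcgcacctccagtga
Igfals: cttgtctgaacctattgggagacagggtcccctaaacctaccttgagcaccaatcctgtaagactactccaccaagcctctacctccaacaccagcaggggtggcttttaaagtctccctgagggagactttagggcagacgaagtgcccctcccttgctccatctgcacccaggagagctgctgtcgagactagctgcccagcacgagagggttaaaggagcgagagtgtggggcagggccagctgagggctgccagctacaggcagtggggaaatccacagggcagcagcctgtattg
Igfbp3: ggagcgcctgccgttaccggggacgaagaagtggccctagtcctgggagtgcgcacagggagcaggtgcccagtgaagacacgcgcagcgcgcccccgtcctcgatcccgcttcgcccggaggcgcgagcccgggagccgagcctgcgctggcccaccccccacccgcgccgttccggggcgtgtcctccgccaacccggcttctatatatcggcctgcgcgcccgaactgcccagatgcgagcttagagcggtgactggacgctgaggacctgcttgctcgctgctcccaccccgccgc
Igfbp1: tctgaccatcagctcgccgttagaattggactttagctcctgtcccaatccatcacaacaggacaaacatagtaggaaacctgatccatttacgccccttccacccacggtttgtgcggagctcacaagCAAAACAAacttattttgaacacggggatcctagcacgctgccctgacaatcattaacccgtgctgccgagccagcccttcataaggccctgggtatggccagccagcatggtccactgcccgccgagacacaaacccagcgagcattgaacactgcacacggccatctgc
Prlr: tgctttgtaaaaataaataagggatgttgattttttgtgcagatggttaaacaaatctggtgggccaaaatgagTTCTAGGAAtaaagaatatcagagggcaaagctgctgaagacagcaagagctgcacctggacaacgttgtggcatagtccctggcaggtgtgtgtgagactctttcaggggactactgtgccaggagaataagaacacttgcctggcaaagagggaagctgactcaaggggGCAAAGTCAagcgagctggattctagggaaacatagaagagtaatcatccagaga

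Livers of D3T-treated rats had lower signals for the hormone receptor Ghr, Igf1, both partners of its circulating complex (Igfals and Igfbp3) and Car3. The groups were separate in 1 of 3 probe sets of Ghr, 3 of 5 of Igf1 and 2 of 3 of Igfals. For Igfbp3 and Car3 they were separate in every probe set. The signals of Stat5b, Igfbp1, Igfbp2 and Prlr overlapped between the groups, with a lower D3T mean for Igfbp1 (log2 difference -0.88 ± 0.32). The fall was largest for Car3, to 24.7% of the vehicle geometric mean, followed by Igfbp3 at 32.6%. For Igf1 the remaining share ran from 39.8% to 77.8% over its 5 probe sets. Of the 26 probe sets, 18 lay among the brightest 60% by mean over all arrays, blind to group, and entered the fit of all genes; Stat5a had none there. Of these 18, 14 had lower and 4 higher D3T means, and 8 probe sets of 5 genes were called lower (adjusted p under 0.05 with limma over all 5244 probe sets) and 0 higher (1 higher at an unadjusted p under 0.05). Over all probe sets tested, 6.48% were called lower and 4.20% higher. Every D3T array lay below every vehicle array for 8 of the 18, against 11.3% of all probe sets tested. Nothing is read from these shares, since the genes were picked with this comparison known. The median log2 difference was -0.71 over the 18 and 0.02 over all probe sets tested.

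**Figure D1:**
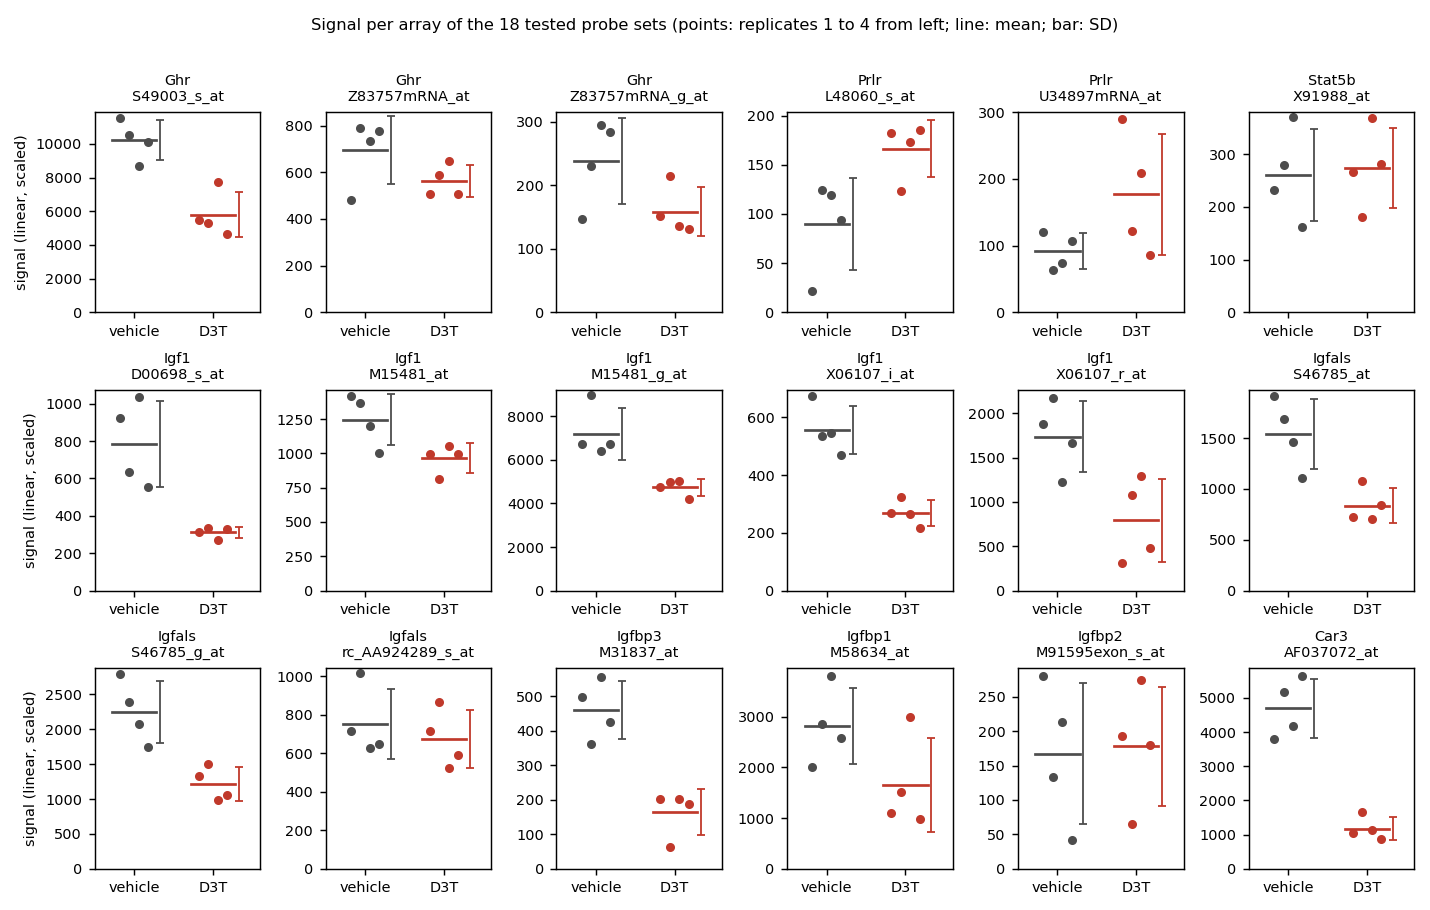
Scaled linear signal per array for the 18 tested probe sets, vehicle in grey and D3T in red, with points for replicates 1 to 4 from left to right, a line for the mean and a bar for the SD (n = 4). Car3, Igfbp3, 1 probe set of Ghr, 2 of Igfals and 3 of Igf1 show D3T points wholly below the vehicle points, whereas Stat5b and Igfbp2 are mixed.

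Ghr, the growth hormone receptor gene, was measured by 3 probe sets. In the brightest (S49003_s_at, whose s marks probes shared with other transcripts) the vehicle signals were 11551, 10544, 8684 and 10088 in replicates 1 to 4, and the D3T signals 5454, 5320, 7751 and 4674. All D3T arrays lay below all vehicle arrays, with D3T replicate 3 nearest to them. The log2 difference was -0.84 ± 0.16 (SE, n = 4 per group), a signal 1.78-fold lower. Both other probe sets come from 1 source sequence (Z83757) and had smaller differences, -0.29 ± 0.18 and -0.57 ± 0.27, with overlapping groups. In each of them vehicle replicate 1 was the lowest vehicle array, at 481 against 735 to 791 and at 146 against 231 to 294. The groups were separate in 1 of the 3 Ghr probe sets, and the sign was the same in the others. With a measure of RNA quality as a covariate, the actin 3'/5' ratio described further on, the difference of the brightest was -0.36 ± 0.17.

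Prlr encodes the prolactin receptor, which shares the Jak2 and Stat5 route and is known as a female-biased gene in rat liver. Of its 5 probe sets 2 passed the filter on low signals. In L48060_s_at the vehicle signals were 22.1, 124, 119 and 94.0 and the D3T signals 182, 123, 174 and 186, a log2 difference of 1.14 ± 0.50, or 0.56 ± 0.26 without vehicle replicate 1. In U34897mRNA_at they were 121, 63.9, 74.4 and 107 against 290, 122, 210 and 86.1, a difference of 0.84 ± 0.39. Both means were higher after D3T and both groups overlapped, with low signals and a wide spread. The other 3 probe sets lay mostly at or under the floor of 20.3, to which lower signals were raised before log2 was taken, and showed no direction.

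The Stat5 genes, neighbours on chromosome 10, showed no difference beyond the spread between rats. Stat5b, the form that prevails in liver, had vehicle signals of 232, 280, 370 and 162 and D3T signals of 266, 181, 368 and 280. The ranges were nearly the same, and the log2 difference was 0.09 ± 0.28. Both probe sets of Stat5a were under the filter, with signals from 13.5 to 135, differences of 0.15 ± 0.68 and 0.71 ± 0.38, and overlapping groups. Stat5 acts once phosphorylated, which an RNA measurement does not show.

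Igf1, the hormone gene, had lower mean signals after D3T in all 5 probe sets. In the brightest, M15481_g_at, the vehicle signals were 6714, 8974, 6385 and 6718 and the D3T signals 4750, 4971, 5024 and 4206. The groups did not overlap, and the log2 difference was -0.59 ± 0.13, a 1.51-fold lower signal. In D00698_s_at the 4 vehicle arrays held 923, 636, 1036 and 552 and the 4 D3T arrays 312, 332, 270 and 330. The D3T values lay close together below a wide vehicle range, with a log2 difference of -1.30 ± 0.21. In X06107_i_at the signals went from 673, 537, 546 and 471 to 268, 326, 265 and 217, a difference of -1.05 ± 0.17 with separate groups.

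The remaining probe sets of Igf1 overlapped. M15481_at, from the same source sequence as the brightest one, differed by -0.36 ± 0.15, with D3T replicate 3 (1057) above vehicle replicate 4 (1006). X06107_r_at differed by -1.33 ± 0.40 with D3T arrays at 313, 1082, 1294 and 477 against 1222 to 2173. The letters i and r mark sets for which a full set of unique probes could not be picked. The size of the Igf1 fall therefore depended on the probe set, from 1.29-fold to 2.51-fold, while its sign was shared by all 5.

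Igfals encodes the acid-labile subunit, which holds IGF-I and Igfbp3 in the circulation. In S46785_g_at the vehicle signals were 2786, 2388, 2069 and 1745 and the D3T signals 1324, 1497, 983 and 1053, and in S46785_at, from the same source sequence, 1911, 1689, 1456 and 1106 against 728, 1075, 702 and 840. No D3T array reached a vehicle array in either. The log2 differences were -0.89 ± 0.18 and -0.87 ± 0.19, so that 54.1% and 54.6% of the vehicle signal remained. The third probe set, rc_AA924289_s_at, ran from 628 to 1017 in vehicle and from 524 to 867 after D3T. Its difference of -0.16 ± 0.20 was smaller than its error.

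Igfbp3, the main carrier of IGF-I in plasma, is made in liver chiefly by non-parenchymal cells. Its brighter probe set M31837_at held 499, 363, 557 and 425 in vehicle and 201, 63.7, 202 and 187 after D3T. The groups did not overlap, D3T replicate 2 lay far below the other D3T arrays, and the log2 difference was -1.62 ± 0.35, or -1.21 ± 0.19 without that array. The other probe set, under the filter, held 40.5, 29.0, 95.9 and 125 in vehicle and 22, 17.1, 18.4 and 17.7 after D3T, with 3 of the D3T arrays at the floor. Its groups did not overlap either.

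Among markers of other liver cells, 2 of 4 endothelial and 1 of 4 stellate cell genes tested were lower with limma, and none of the Kupffer cell, cholangiocyte or lymphocyte genes passed. The summed signal of the 4 tested endothelial markers ran from 1201 to 1499 in vehicle and from 789 to 1068 after D3T (exact two-sided permutation p = 0.0286, the smallest that 4 against 4 arrays allow, and 0.134 after Benjamini-Hochberg adjustment over 14 such measures). Of those 4, Fcgr2b was 1.88-fold lower (limma adjusted p = 0.0258) and Lyve1 1.74-fold lower (adjusted p = 0.0474), while Pecam1 and Kdr, named after their values were seen, did not pass. The 2 Kupffer cell markers tested summed to 1812 to 2456 in vehicle and 1255 to 1815 after D3T (exact p = 0.0571, adjusted 0.160). Their mean log2 levels did not overlap, at 9.82 to 10.23 and 9.28 to 9.74 (exact p = 0.0286, adjusted 0.134). Neither marker passed singly with limma (both were lower at an unadjusted p under 0.05). The brighter, Lyz2, a lysozyme gene, had 1286 ± 291.7 and 791.5 ± 304.6 (limma adjusted p = 0.0927). The other, Clec4f, had 889.0 ± 111.2 and 637.1 ± 60.5, lower in 4 of 4 D3T arrays (adjusted p = 0.0546). Of 4 stellate cell markers Col3a1 was 1.86-fold lower (limma adjusted p = 0.0399) with overlapping arrays. Vim had a log2 difference of -0.885 ± 0.328, Col1a1 of 0.138 ± 0.186 and Dcn of 0.179 ± 0.215, and none of these passed. The sums of the 4 ran from 1741 to 3338 in vehicle and from 1300 to 1849 after D3T. Col3a1 was the largest part of them (means 1692 and 882). Their mean log2 levels overlapped, at 8.361 to 9.175 and 8.101 to 8.502 (exact p = 0.143, adjusted 0.222). Leaving out single arrays, Fcgr2b passed in 4 of 8 fits, Col3a1 in 2 and Lyve1 in 1 (highest adjusted p 0.0681, 0.111 and 0.120), and with no filter none of them passed (0.0801, 0.131 and 0.0944). With the actin covariate none of them passed either (limma adjusted p 0.130, 0.353 and 0.365). Their log2 differences were then -1.26, -0.87 and -0.79, against -0.91, -0.90 and -0.80 without it. That of Lyz2 went from -0.74 ± 0.26 to -0.18 ± 0.36. Neither the 3 cholangiocyte nor the 2 lymphocyte markers tested held a gene that passed with limma (1 in each was higher at an unadjusted p under 0.05; medians 0.17 and 0.37); the brightest were Epcam, an epithelial adhesion gene (adjusted p = 0.696), and Ptprc, the leukocyte antigen CD45 (adjusted p = 0.156). The part of these cells in the lower Igfbp3 signal was not tested. Of the 7 hepatocyte markers tested with limma, 4 were higher at an unadjusted p under 0.05, 0 passed as higher, and the median was 0.27. Their sums ran from 137300 to 206000 in vehicle and from 175200 to 241300 after D3T. Only Fgb, a fibrinogen chain gene, passed, and it was lower (1.74-fold, a log2 difference of -0.80, adjusted p = 0.0126, but 0.0587 with no filter). Its log2 difference was -0.08 (adjusted p = 0.773) when averaged with its other probe set, which lay under the filter and had the opposite sign, and -0.44 (adjusted p = 0.379) with the actin covariate.

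Igfbp1, a neighbour of Igfbp3 on chromosome 14, is raised by fasting and lowered by insulin. Its vehicle signals were 2001, 2860, 3805 and 2581 and its D3T signals 1093, 1512, 3001 and 982. Of the D3T arrays 3 lay below every vehicle array, and D3T replicate 3 lay above vehicle replicates 1, 2 and 4. The log2 difference was -0.88 ± 0.32 over all arrays and -1.22 ± 0.22 without D3T replicate 3.

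Igfbp2, which binds IGF-I and IGF-II and is abundant in fetal liver, had low signals here. Its 1 probe set above the filter ran from 42.5 to 280 in vehicle and from 64.5 to 274 after D3T, with a difference of 0.22 ± 0.59. The other 2 probe sets, with signals from 12 to 117, had differences of -0.09 ± 0.34 and -0.44 ± 0.61. No direction could be seen at these signals.

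Car3 encodes carbonic anhydrase III, an abundant cytosolic protein of male rat liver. Its single probe set held 3786, 5180, 4176 and 5634 in vehicle and 1035, 1665, 1139 and 874 after D3T. The groups lay far apart, and the log2 difference was -2.02 ± 0.20, a 4.05-fold lower signal. Among 3149 other named genes compared, the profile over the 8 arrays closest to that of Car3 by root mean square distance on the log2 scale was Oat (0.27), an ornithine aminotransferase, followed by Nek9 (0.29), a kinase, and Cyba (0.31), an NADPH oxidase subunit. Within the axis, Igfals ranked 82nd in closeness to Car3, Ghr 100th, Igf1 192nd, Igfbp1 196th and Igfbp3 299th. Stat5b, Prlr and Igfbp2 ranked 2084th, 2979th and 3018th. The genes closest to the brightest Igf1 probe set were the transporter genes Slc41a2 (0.11) and Slco2a1 (0.12) and Lcat (0.12), a plasma enzyme of cholesterol esterification. In closeness to Igf1, Ghr ranked 167th and Igfals 428th. The other axis genes lay far down, with Igfbp1 1723rd, Stat5b 1936th, Car3 2667th, Igfbp3 2747th, Prlr 2928th and Igfbp2 3022nd. These distances carry the size of the difference between the groups, so a gene that fell by more in the same arrays lies farther away. The Igf1 probe set used (log2 difference -0.59) fell less than the others with separate groups (-1.30 and -1.05). The ranks are a description.

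**Figure D2:**
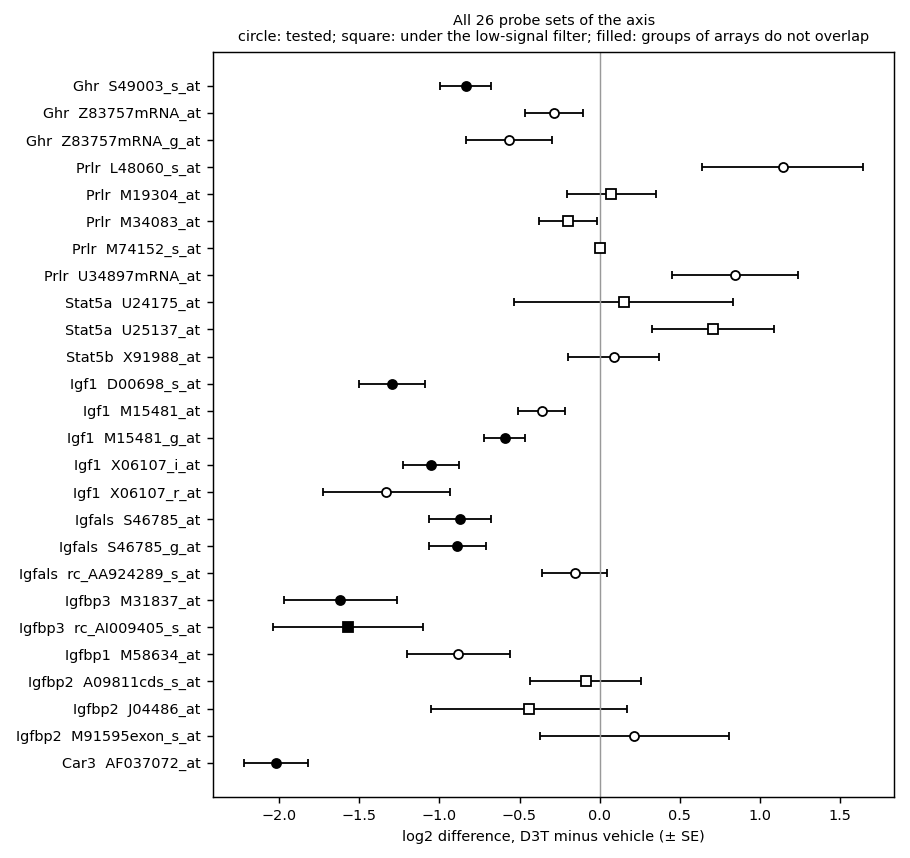
Log2 difference, D3T minus vehicle, with its SE for all 26 probe sets, ordered by role; circles were tested, squares lay under the filter on low signals, and filled symbols mark groups of arrays that did not overlap. The filled symbols all lie left of 0, from -0.59 for Igf1 to -2.02 for Car3, and the Prlr and Stat5 symbols lie near or right of 0 except 1 Prlr set at -0.20.

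The arrays also differed in RNA quality measures. The actin 3'/5' signal ratio, which rises as RNA or its copies shorten, was 1.45 to 1.59 in vehicle and 1.17 to 1.47 after D3T (exact two-sided permutation p = 0.0571, adjusted 0.160), and the Gapdh ratio 1.70 to 2.18 and 1.43 to 2.00 (exact p = 0.114, adjusted 0.200). D3T replicate 3, the D3T array with the highest signals of the brightest Ghr probe set and of Igfbp1, also had the highest of both ratios among D3T arrays. With the actin ratio as a covariate the log2 difference of Car3 was -1.72 ± 0.30, that of Igfbp3 -1.76 ± 0.57, and those of the Igfals probe sets with separate groups -0.98 ± 0.31 and -0.87 ± 0.29. Those of the Igf1 probe sets with separate groups were -1.59 ± 0.32, -0.44 ± 0.20 and -0.85 ± 0.27. Ghr shrank to -0.36 ± 0.17 and Igfbp1 to -0.26 ± 0.46. With this covariate 15 of the 18 tested probe sets had lower D3T means, among them Stat5b at -0.06 ± 0.46. Only 1 of the 18 was then called lower, against 8 without the covariate. Over all probe sets tested, 11 were then called lower and 24 higher. Of the D3T arrays only replicate 3 reached the vehicle range of the actin ratio, so the ratio nearly follows the groups. This fit therefore cannot tell treatment and RNA quality apart. The error of Igfbp3 widened from 0.35 to 0.57 and that of Stat5b from 0.28 to 0.46, while that of the brightest Ghr probe set went from 0.16 to 0.17.

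Genes outside the list that carry the signal from the receptor were looked at in the same fit, and 3 of 15 were under the filter on low signals. Of 12 tested genes of growth hormone receptor signalling, 1 was lower and none higher, beside 5.84% lower and 3.71% higher of all 3150 genes tested, and the list median of the log2 differences was 0.06 (0.03 over all genes). The 1 lower was Lyn, a Src-family kinase (195.7 ± 19.8, SD, n = 4, against 104.5 ± 34.4, adjusted p = 0.0397), which passed in 1 of 8 fits that each left out an array (highest adjusted p 0.106). Its log2 difference was -0.95, and -0.36 (adjusted p = 0.450) when it was averaged with its probe sets under the filter. Jak2, the kinase of the receptor, had a difference of 0.06 ± 0.71 and Cish, a Stat5-induced inhibitor, -0.26 ± 0.80, both with errors too large to show a change of the size seen for Igf1; both were named after their values were seen. Among 10 genes of the IGF and insulin system outside the 10 described, Klkb1, plasma prekallikrein, was 1.39-fold lower (2215 ± 122.5 against 1589 ± 61.1, limma adjusted p = 0.0171). It passed in 6 of 8 such fits, the highest at 0.0552. None of the 10 was called higher (list median -0.10), while 3 were lower and 1 higher at an unadjusted limma p under 0.05. Of 5 class I cytokine receptor genes, the family of Ghr and Prlr, Il6r was 1.67-fold lower (adjusted p = 0.0208, passing in 4 of 8, the highest at 0.0658), the others did not pass, and the median was 0.26.

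Genes known to be set by growth hormone pulses had calls in both directions. Of 8 male-biased genes 1 was called lower, Cyp3a2, a steroid hydroxylase, at 3.28-fold (5931 ± 955.5 against 1841 ± 505.5, limma adjusted p = 0.000553). The list median was 0.00. Without adjustment, 2 of the 8 were lower and 1 was higher at a limma p under 0.05. Cyp2c11, the hydroxylase that serves as the standard readout of the male pulse pattern and was named after its value was seen, had 18070 ± 2874 in vehicle and 18080 ± 2385 after D3T, a log2 difference of 0.00 ± 0.14 (adjusted p = 0.984). Its other tested probe sets, M18363cds_s_at and X79081mRNA_f_at, had differences of -0.30 ± 0.17 and -0.08 ± 0.30 and did not pass. The brightest Cyp2c11 probe set is J02657_s_at. As for Ghr, the s marks probes shared with other transcripts, so its signal need not be that of Cyp2c11 alone. Of 4 female-biased genes, Cyp2a1 was 1.57-fold higher (adjusted p = 0.0132) and Sult2a1 2.59-fold lower (adjusted p = 0.0120). At an unadjusted limma p under 0.05, 2 of the 4 were higher and 2 lower, and the median of -0.53 lies between these. Cyp2c12, the hydroxylase that marks the female pattern and also named after its value was seen, had 179.3 ± 17.6 and 75.4 ± 41.7, lower in 4 of 4 D3T arrays, and did not pass (adjusted p = 0.0564). Its signals were low, the lowest D3T array at 24.65 against the floor of 20.3. Among 8 liver transcription factor genes linked to growth hormone signalling, Hnf4a was 1.41-fold higher (adjusted p = 0.0477, passing in 0 of 8 fits that left out an array, the highest at 0.116) and Cebpb, an acute phase regulator, fell by 0.59 on the log2 scale (adjusted p = 0.0186, passing in 5 of 8, the highest at 0.0574), with a median of -0.17. With the actin covariate none of the genes named in these lists passed, Cyp3a2 coming nearest with an adjusted p of 0.0667. Against the fit without it, the log2 difference went from -1.71 to -1.60 for Cyp3a2, from -1.37 to -1.69 for Sult2a1, from -0.95 to -1.17 for Lyn and from -0.48 to -0.50 for Klkb1. It went from -0.74 to -0.58 for Il6r, from -0.59 to -0.50 for Cebpb, from 0.50 to 0.31 for Hnf4a and from 0.65 to 0.31 for Cyp2a1. With no filter Lyn (0.0772), Il6r (0.0592), Sult2a1 (0.0676) and Hnf4a (0.0720) did not.

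Genes that respond to fasting, glucagon and glucocorticoids, as Igfbp1 does, gave no calls with limma among 7 tested (1 was lower at an unadjusted p under 0.05; median -0.16), of which Pck1, the gluconeogenic carboxykinase, was the brightest (11000 ± 811.2 against 9862 ± 1272, adjusted p = 0.372). Of the pituitary hormone and releasing factor genes 5 of 10 were under the filter on low signals, and of the 5 tested 0 passed with limma (2 were higher at an unadjusted p under 0.05; median 0.46); the brightest, Ghrh, had 692.6 ± 143.1 and 1034 ± 149.6 (adjusted p = 0.0571) with 1 of its probe sets of opposite sign. Of 3 other carbonic anhydrase genes tested, Car5a, the mitochondrial form, was 1.61-fold higher (782.6 ± 52.0 against 1259 ± 60.5, adjusted p = 0.00589) in 4 of 4 D3T arrays, in the direction opposite to Car3, and passed in 8 of 8 fits that left out an array but not with the actin covariate (adjusted p = 0.193), where its log2 difference was 0.59 ± 0.18 against 0.69 ± 0.11. Car2 and Car4, named after their values were seen, did not pass (list median 0.69). Car2 was 1.62-fold higher in 4 of 4 D3T arrays (limma adjusted p = 0.0676), and Car4 was 1.71-fold higher with overlapping arrays (adjusted p = 0.223). Of the 3, 2 were higher at an unadjusted limma p under 0.05.

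**Figure D3:**
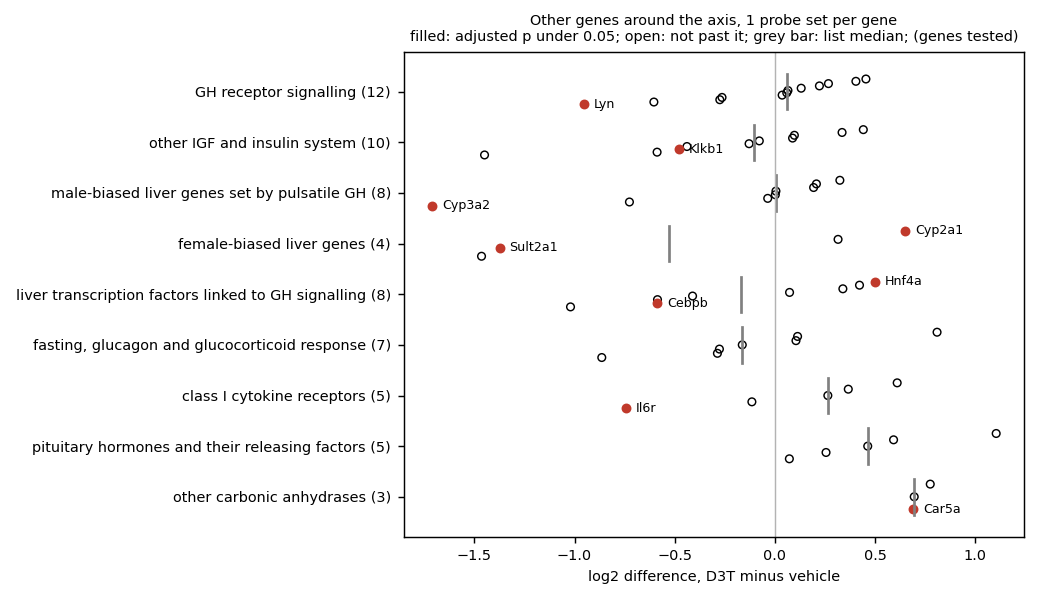
Log2 difference, D3T minus vehicle, of each tested gene (1 probe set per gene) in 9 lists around the axis, red where the limma adjusted p was under 0.05 and open otherwise, with a grey bar at each list's median and the number of genes tested in brackets. Most symbols are open; Cyp3a2 at -1.71 and Sult2a1 at -1.37 lie farthest left among those called, and Car5a at 0.69 and Cyp2a1 at 0.65 farthest right.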

How the data were processed

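The authors deposited linear intensities (signals), 1 for each probe set on each array, which were made with MAS5 per the submitters' processing notes; for that step, version, scaling target and detection calls were not given in the sources used here. The 2% trimmed means of the arrays ran from 500.8 to 501.0. Arrays were set to a common trimmed mean of 500, signals under the 20th percentile (20.3) were raised to it, and log2 was taken. Without 59 control probe sets, the brightest 60% of 8740 by mean over all arrays (5244) were fitted with limma 3.58.1 in R 4.3.3 (group only, intensity trend, Benjamini-Hochberg over all of them). Differences of probe sets under the filter come from a fit of all 8740. Means and SDs are linear; fold sizes are ratios of geometric means of floored signals. Arrays have no counts, so their number limits the precision. A limma p-value sets the group difference against the spread between these rats, moderated over the fitted probe sets. The exact p-values come from all 70 assignments of the arrays to the groups.

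Names came from the platform annotation, with 7006 probe sets matched to 1 symbol, 308 to several and 1426 to none; all 10 symbols were current in RefSeq (GRCr8). The 10 genes and the gene lists were chosen with earlier results of these data known. The text names all 10 with every probe set, in each list up to 3 called genes or else the brightest, Nqo1, Gstp1 and Akr7a3, and the 3 nearest profiles of Car3 and Igf1. Pecam1, Kdr, Clec4f, Vim, Col1a1, Dcn, Jak2, Cish, Cyp2c11, Cyp2c12, Car2 and Car4 fall outside this rule and were named after their values were seen. In the lists a gene is its brightest tested probe set. The fit was tested on simulated data. Same-numbered arrays of the groups share only a number. Alternatives were other scalings, floors, filters and variance settings, a replicate block, an actin covariate, gene means and leaving out each array.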

Additional observations from a re-analysis of the deposited data

Results flagged for a closer look

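Among 49 groups of 4 arrays (the 26 probe sets of the axis in vehicle and in D3T, without 3 groups wholly at the floor), 11 had 1 array farther from the others than Dixon's 95% criterion allows; chance alone flags about 1 in 20. In 5 of them the other 3 arrays were at the floor of 20.3, so the gap only says that 1 array rose above it. These were Prlr M19304_at in vehicle replicate 4 (32.3) and D3T replicate 3 (39.6), Prlr M34083_at in vehicle replicate 3 (34.9), the fainter Igfbp3 probe set in D3T replicate 1 (22) and Igfbp2 A09811cds_s_at in D3T replicate 2 (41.2).

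Of the rest, the ones that touch a result are Ghr Z83757mRNA_at, where vehicle replicate 1 was low at 480.7 against 734.9 to 790.9, Igf1 M15481_g_at, where vehicle replicate 2 was high at 8974 against 6384.8 to 6717.8, and Igfbp3 M31837_at, where D3T replicate 2 was low at 63.7 against 187.1 to 201.6. Without vehicle replicate 2 the log2 difference of that Igf1 probe set was -0.48 ± 0.11. Prlr L48060_s_at was low in vehicle replicate 1 (22.1 against 94.0 to 124.1) and in D3T replicate 2 (123.4 against 173.6 to 185.5), and Stat5a U24175_at was high in vehicle replicate 4 (135.0 against 20.9 to 28.6). The cause of these gaps was not tested.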

How the results depend on the processing

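The signs of the log2 differences of the 8 called probe sets of the axis held under every alternative in which they were tested. Their count was 8 with the chosen settings, 4 with no filter, 1 with the actin covariate, 7 with no intensity trend, 9 with the replicate block and between 6 and 10 without 1 array. Over all probe sets, 220 were higher and 340 lower; unfiltered they were 131 and 178, without an intensity trend 124 and 209, with the replicate block 99 and 191, and with the actin covariate 24 and 11. Without 1 array they ran from 100 to 315 higher and from 140 to 380 lower, moving by over 1.5 times without vehicle replicate 1, 3 or 4 or D3T replicate 1 or 4. Same-numbered arrays had correlations of their deviations from -0.198 to 0.063, and 1 of 4 correlated best with its own number, so no pairing was assumed. Among the 26 probe sets of the axis, the differences that moved by more than 1 within-group SD were those of Ghr, Igfbp1, Igf1 X06107_r_at (-0.38) and Prlr U34897mRNA_at (1.73) with the actin covariate and those of Ghr (-0.56) and Igf1 (-0.93) when a gene's probe sets were averaged. Prlr L48060_s_at went from 1.14 to 0.56 without vehicle replicate 1. Of the list genes, averaging took Fgb to -0.08, Lyn to -0.36 and Ghrh from 0.59 to -0.08, and the actin covariate took Cyp2a1 to 0.31; the cause was not tested. Counts of probe sets are not defined for gene means. Low signals limit what can be said of Prlr, Stat5a and Igfbp2.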
